A study of Mus musculus with 6 samples.

Results

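The 7 genes described here encode enzymes that oxidise or conjugate small molecules in the mouse kidney. Of these, 6 are cytochrome P450 genes (Cyp2e1, Cyp2a4, Cyp4a10, Cyp4a12a, Cyp4b1 and Cyp2j5) and 1 is a UDP-glucuronosyltransferase gene (Ugt2b37). A list of symbols defined the set, and each symbol matched a single feature among the 31053 in the kidney count table. A Cyp or Ugt symbol was carried by 123 features (101 Cyp and 22 Ugt), which left 116 family genes outside the set.

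Cytochrome P450 enzymes of these families sit in the endoplasmic reticulum, draw electrons from P450 reductase (Por) and cytochrome b5 (Cyb5a), and insert oxygen into drugs, steroids and fatty acids. Ugt enzymes couple glucuronic acid from UDP-glucuronate to such products, which makes them more soluble. In the kidney both families are best known from the proximal tubule, whose S1, S2 and S3 segments follow each other from the glomerulus towards the outer medulla, and several of the mouse genes respond to androgens.

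Kidneys of male C57BL/6 mice at 12 weeks of age were minced, digested with type I collagenase, sorted for live cells and sequenced by droplet (10x Genomics, v3 chemistry). The control library came from a 60 min digest in a shaken tube. The other kidney libraries came from a microfluidic tissue-processing platform that yielded cells at 15 min and 60 min intervals. In this format freed cells were eluted at 15 min, the enzyme was replaced and the remaining tissue was processed further. Each condition was 1 library, so differences between conditions could not be set against the spread of replicates and are given without a test. The reporting summary of the study adds that the conditions of a replicate came from a shared source mouse and that single-cell sequencing had only a single replicate, so the libraries describe tissue of 1 animal.

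The control, 15 min platform and 60 min platform libraries held 8233, 12082 and 13719 cells, with 69691783, 116998401 and 112969440 unique molecular identifiers (UMIs, one per captured RNA molecule). Between 53 and 211 cell barcodes were shared by each pair of libraries. The study's own limits (200 to 3000 genes per cell, 50% mitochondrial UMIs) left 5886, 8390 and 9936 cells. Marker genes, none of them a Cyp or Ugt gene, placed 3071, 7182 and 2841 of these in the proximal tubule, which was 52.2, 85.6 and 28.6% of kept cells. Within the proximal tubule, 574, 1969 and 930 cells were S1-like (Slc5a2, Slc5a12, Slc2a2, Slc6a19, Spp2). A further 534, 1610 and 513 were S3-like (Slc7a13, Atp11a, Slc5a10, Slc22a7, Serpina1f), and 370, 1263 and 321 were led by the organic anion transporter genes Slc22a6 and Slc22a8. The last gate rests on these 2 markers only and is called OAT-high here. The other 1593, 2340 and 1077 proximal cells stayed unresolved. Genes outside the gate lists followed the labels: Gatm, which makes the creatine precursor in the early proximal tubule, had 2575, 2522 and 2321 CPM in S1-like and 57.7, 44.7 and 51.1 CPM in S3-like cells. The protease gene Napsa had 98.0, 149 and 102 CPM in S1-like and 2438, 3284 and 3860 CPM in S3-like cells.

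Levels are given as CPM, the UMIs of a gene scaled to a common total of 1000000 UMIs in the same gate and library, in the order control, 15 min platform, 60 min platform. Bracketed ranges are exact 95% intervals that cover counting error only. Because the assay counts molecules near 1 transcript end, CPM is not corrected for length, and levels are compared within a gene and not between genes.

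Along the proximal tubule, 6 of the 7 genes were at least 2-fold higher in OAT-high than in S1-like cells in all 3 libraries, and 5 of the 7 were at least 2-fold higher in S3-like than in S1-like cells. Of all genes with at least 20 UMIs, 2.92% of 7809 and 4.98% of 8068 met the same criteria, while 6.45% and 8.99% met the opposite ones, which no gene of the set did. The largest S3-like to S1-like ratio in each library was that of Cyp2a4, and the smallest was that of Cyp2j5 in the control and at 15 min and that of Cyp4a12a at 60 min. From OAT-high to S3-like cells the set split: Cyp2a4, Cyp4a10 and Ugt2b37 were at least 2-fold higher in S3-like cells in all 3 libraries (background 1.0% of 6996 genes), Cyp4a12a was at least 2-fold lower (background 0.958%), and Cyp2e1, Cyp4b1 and Cyp2j5 passed neither limit.

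**Figure D1:**
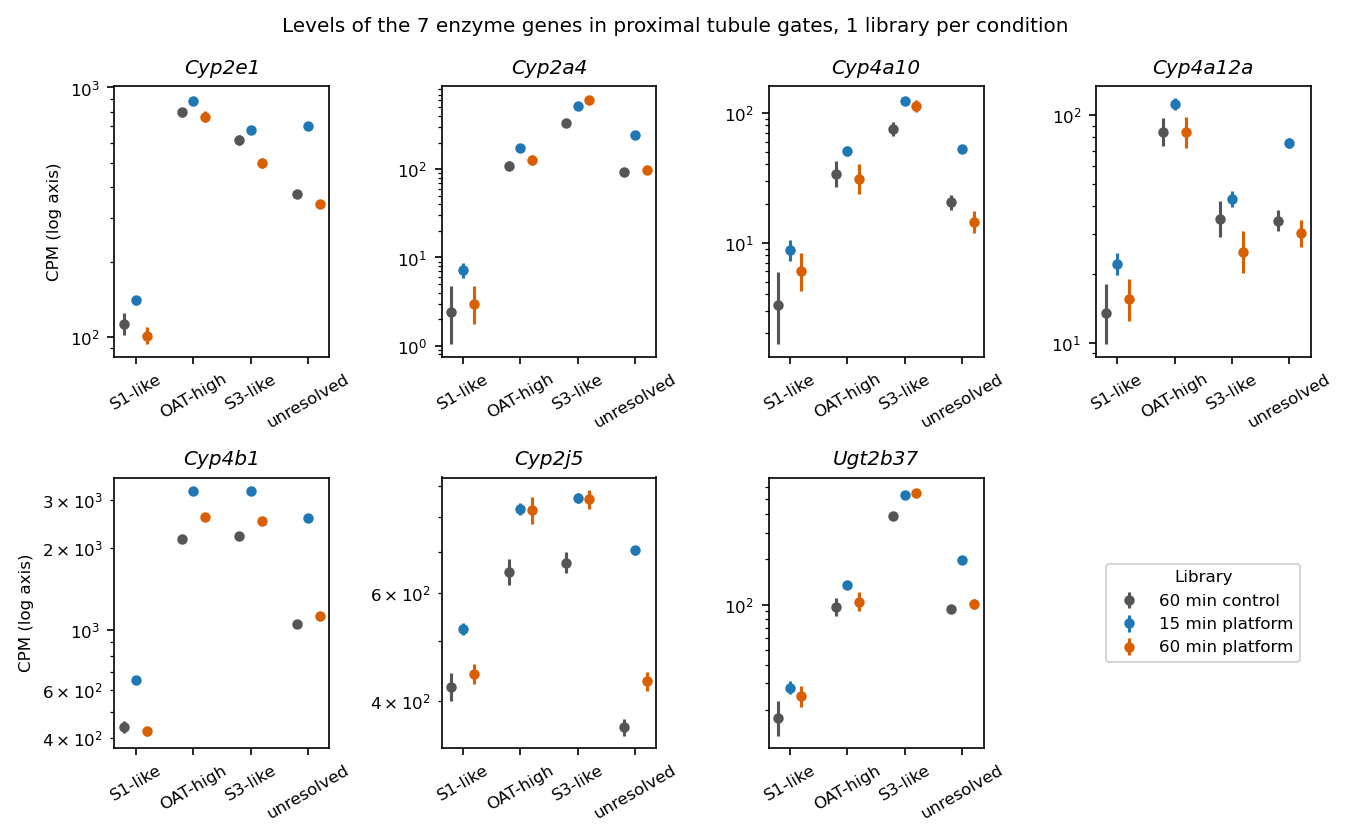
Level of each gene (CPM, log axis) in S1-like, OAT-high, S3-like and unresolved proximal cells of the 3 kidney libraries; points are pooled UMIs and bars exact 95% counting intervals. Cyp2a4 climbs from 2.40, 7.15 and 3.00 in S1-like to 331, 514 and 609 in S3-like cells, whereas Cyp4a12a is highest in OAT-high cells at 84.6, 112 and 84.7.

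Among the enzymes of small foreign molecules and steroids, Cyp2e1, which oxidises ethanol, acetone and many solvents, had 112, 140 and 101 CPM in S1-like cells, 794, 886 and 763 CPM in OAT-high cells and 616, 673 and 498 CPM in S3-like cells. Its highest level was thus in the OAT-high gate in every library. The S3-like to S1-like ratio was 5.48, 4.82 and 4.93, and the S3-like to OAT-high ratio 0.776, 0.760 and 0.653. Cyp2a4, a steroid hydroxylase, was represented by only 8, 98 and 18 UMIs in S1-like cells, or 2.40, 7.15 and 3.00 CPM. In OAT-high cells it reached 110, 174 and 127 CPM, and in S3-like cells 331, 514 and 609 CPM. The S3-like to S1-like ratio was therefore 138 (69.8 to 320), 72.0 (58.9 to 88.8) and 203 (128 to 343), and the width of these intervals comes from the few S1-like UMIs. Endothelial cells had 2.17, 2.20 and 3.18 CPM, so in the control and at 60 min the S1-like level was near that of cells that should lack the gene. The ratios of these libraries thus rest on a denominator near the floor.

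The fatty acid hydroxylases did not share 1 pattern. Cyp4a10, a peroxisome proliferator-inducible fatty acid omega-hydroxylase, rose along the tubule from 3.30, 8.76 and 6.01 CPM in S1-like cells (11, 120 and 36 UMIs) to 33.9, 50.8 and 31.0 CPM in OAT-high and 74.5, 123 and 113 CPM in S3-like cells. Cyp4a12a, an androgen-dependent hydroxylase that turns arachidonic acid into a vasoconstrictor, had 13.5, 22.3 and 15.5 CPM in S1-like, 84.6, 112 and 84.7 CPM in OAT-high and 35.1, 42.9 and 25.1 CPM in S3-like cells. It was the only gene of the 7 that fell by more than 2-fold from OAT-high to S3-like cells in every library, with ratios of 0.415, 0.383 and 0.297. Cyp4b1, which hydroxylates fatty acids and activates some plant and fungal toxins, had 441, 655 and 424 CPM in S1-like cells. It was nearly level in the later gates, at 2153, 3226 and 2598 CPM in OAT-high and 2215, 3239 and 2516 CPM in S3-like cells, and the ratio of these gates was 1.03, 1.00 and 0.969.

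Cyp2j5, an epoxygenase of arachidonic acid, varied least over the 3 gates. Its level was 421, 524 and 443 CPM in S1-like, 650, 824 and 820 CPM in OAT-high and 673, 858 and 855 CPM in S3-like cells. The S3-like to S1-like ratio of 1.60, 1.64 and 1.93 stayed under 2-fold in each library. Ugt2b37, the conjugating enzyme of the set, rose from 17.7, 28.2 and 24.7 CPM in S1-like through 96.2, 135 and 105 CPM in OAT-high to 384, 534 and 551 CPM in S3-like cells. That is a 21.7, 19.0 and 22.3-fold difference between the ends of the tubule.

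Together the 7 genes made up 1011, 1385 and 1017 CPM in S1-like, 3921, 5408 and 4528 CPM in OAT-high and 4329, 5985 and 5166 CPM in S3-like cells. The composition of that sum also differed. Cyp2j5 supplied 41.6, 37.8 and 43.5% of it in S1-like cells but 15.6, 14.3 and 16.5% in S3-like cells, whereas Ugt2b37 and Cyp2a4 supplied 8.87, 8.93 and 10.7% and 7.64, 8.60 and 11.8% in S3-like cells.

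The same order was seen cell by cell. After every cell had been thinned to 1000 UMIs, S1-like cells held on average 0.749, 0.953 and 0.804 of the 7 genes, OAT-high cells 1.99, 2.41 and 2.18, and S3-like cells 2.23, 2.77 and 2.45. At least 4 of the genes were found in 15.1, 26.4 and 18.1% of the thinned S3-like cells, and all 7 in none. Each of the 7 genes had a UMI in a larger share of S3-like than of S1-like cells in all 3 libraries. No fold limit was set here, and the share of all genes that did so was not worked out. Margins could be small: thinned Cyp4a12a at 60 min averaged 0.02345 UMIs per S3-like and 0.0201 per S1-like cell. For Cyp2a4 the thinned shares were 22.1, 33.4 and 32.2% in S3-like against 0, 0.512 and 0.336% in S1-like cells. Without thinning, Cyp2a4 was found in 54.7, 72.2 and 63.5% of S3-like cells (median 5608, 7426.5 and 6294 UMIs per cell) and in 1.39, 2.95 and 1.51% of S1-like cells (5432, 6527 and 6206.5 UMIs). Endothelial cells, which should lack the gene, showed it in 0.887, 0.829 and 1.17% (4073, 3745.5 and 3756 UMIs), and the S1-like shares, from deeper cells, lay above those values in each library. Such shares rise with depth, so the 2 kinds of cell are not on equal terms. By CPM, S1-like cells had 2.40, 7.15 and 3.00 and endothelial cells 2.17, 2.20 and 3.18. The S1-like level was thus clearly higher only at 15 min, close in the control and slightly lower at 60 min. How much of the S1-like signal is free RNA in the droplets was not tested.

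Promoter sequence is shown because the genes followed the proximal tubule together but with different slopes. The 250 bases before the RefSeq start (GRCm38.p6, the mm10 build of the files) were available for 5 of the 7 genes and were searched on both strands for 5 short motifs: GTTAAT (HNF1 half-site), CAAAGTC (HNF4 core), AGGTCA (nuclear receptor half-site), AGAACA (androgen receptor half-site) and, for the box that places the start of transcription, the letters TATAAA. Capitals mark the matches, written as they lie on the gene's own strand, and none overlaps another.
Cyp2e1, chr7:140763569-140763818, plus strand: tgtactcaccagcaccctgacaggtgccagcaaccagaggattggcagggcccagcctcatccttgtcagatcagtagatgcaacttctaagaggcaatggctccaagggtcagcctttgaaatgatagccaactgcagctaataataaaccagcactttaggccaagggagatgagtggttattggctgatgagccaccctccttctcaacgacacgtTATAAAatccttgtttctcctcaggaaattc
Cyp2a4, chr7:26306942-26307191, plus strand: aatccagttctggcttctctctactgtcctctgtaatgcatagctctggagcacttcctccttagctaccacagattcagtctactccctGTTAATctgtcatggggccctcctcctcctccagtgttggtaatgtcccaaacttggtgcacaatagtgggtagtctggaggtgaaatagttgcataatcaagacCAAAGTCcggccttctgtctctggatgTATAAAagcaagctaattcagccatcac
Cyp4b1, chr4:115647722-115647971, minus strand: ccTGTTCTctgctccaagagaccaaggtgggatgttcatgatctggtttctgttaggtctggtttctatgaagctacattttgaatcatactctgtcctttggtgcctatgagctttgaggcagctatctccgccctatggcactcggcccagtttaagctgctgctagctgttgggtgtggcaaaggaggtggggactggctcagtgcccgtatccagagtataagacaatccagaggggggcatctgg
Cyp2j5, chr4:96664120-96664369, minus strand: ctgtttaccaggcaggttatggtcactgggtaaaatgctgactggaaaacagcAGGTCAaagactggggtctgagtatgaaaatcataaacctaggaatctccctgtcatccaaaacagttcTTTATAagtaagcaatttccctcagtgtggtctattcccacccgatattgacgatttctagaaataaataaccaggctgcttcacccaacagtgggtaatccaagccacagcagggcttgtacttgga
Ugt2b37, chr5:87254789-87255038, minus strand: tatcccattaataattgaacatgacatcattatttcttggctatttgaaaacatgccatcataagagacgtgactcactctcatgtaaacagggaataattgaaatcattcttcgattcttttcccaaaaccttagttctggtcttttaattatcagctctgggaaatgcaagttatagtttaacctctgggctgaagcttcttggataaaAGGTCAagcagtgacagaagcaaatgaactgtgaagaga

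Cyp2a4, the gene with the steepest gradient, held the TATA letters at -28 from the start, the HNF4 core at -55 and the HNF1 half-site at -160. Cyp2e1 held the TATA letters at -31. Ugt2b37 held the nuclear receptor half-site at -39 and Cyp2j5 held it at -197, beside reverse-strand TATA letters at -128, and Cyp4b1 held the androgen receptor half-site on the reverse strand at -248. Among 32851 promoters of the same length, the HNF1 half-site was found in 6.43%, the HNF4 core in 3.84%, the nuclear receptor half-site in 14.0%, the androgen receptor half-site in 16.1% and the TATA letters in 12.4%. These matches are letters in a window and say nothing of binding.

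By the GENCODE M21 annotation all 7 are protein-coding genes on 3 chromosomes. Cyp4a12a (chr4:115299046-115332815, plus strand), Cyp4a10 (chr4:115518264-115533649, plus) and Cyp4b1 (chr4:115624725-115647723, minus) lie close together, with Cyp2j5 (chr4:96628773-96664154, minus) on the same chromosome. Cyp2a4 (chr7:26307169-26315088, plus) and Cyp2e1 (chr7:140763739-140774987, plus) lie on chromosome 7, and Ugt2b37 (chr5:87240493-87254804, minus) on chromosome 5.

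Close copies limit how firmly some of these counts belong to 1 gene. In the last 500 transcript bases, the end near which this assay primes, 30.2% of the 90-base windows of Cyp4a12a were also found in Cyp4a12b, and 10.5% of those of Cyp2a4 in another gene, mostly Cyp2a5. For Cyp2e1 the share was 9.0%, mostly with Fcho2. Cyp4a10, Cyp4b1, Cyp2j5 and Ugt2b37 shared no such window. The copies themselves had 91.0, 125 and 80.2 CPM (Cyp2a5), 83.8, 96.0 and 97.2 CPM (Cyp4a31) and 4.64, 4.57 and 7.34 CPM (Cyp4a14) in S3-like cells. Cyp4a12b had 8.59, 11.2 and 7.36 CPM in OAT-high cells, where Cyp4a12a was highest. Reads that fit both copies may have been left out, so the levels of Cyp4a12a and Cyp2a4 are uncertain by an unknown amount.

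The question put to the conditions was whether platform processing, and its duration, went with other levels of these enzymes in the same kind of cell. The 15 min platform library differs from the control in both device and digestion time. The 60 min platform library holds cells that remained after the 15 min elution. Device, time and order of release therefore cannot be told apart. At 15 min all 7 genes lay above the control in each gate, with the whole interval above 1. Among all genes tested, that held for 6.45% of 10191 in S1-like, 4.89% of 9066 in OAT-high and 4.65% of 9415 in S3-like cells. Intervals narrow as UMIs increase, and these shares, here and at 60 min, were not matched for abundance. The part of abundance in the contrast was not tested. Other abundant genes went both ways in S3-like cells from control to 15 min. Kap rose from 89360 to 123500 CPM and Napsa from 2438 to 3284 CPM. Odc1 fell from 2543 to 1857 CPM and Cyb5a from 4118 to 3378 CPM. The differences were mostly under 2-fold: within the 3 gates only Cyp2a4 and Cyp4a10 passed that limit, and only in S1-like cells, where 2.46% of all genes did. None of the 7 passed it in OAT-high or S3-like cells, against 3.19% and 3.61% of all genes. Over all proximal cells, unresolved ones included, Cyp4a10 was the 1 gene of the set past it, at 58.2 against 28.8 CPM or 2.02-fold (1.84 to 2.21), where 2.51% of all genes were.

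**Figure D2:**
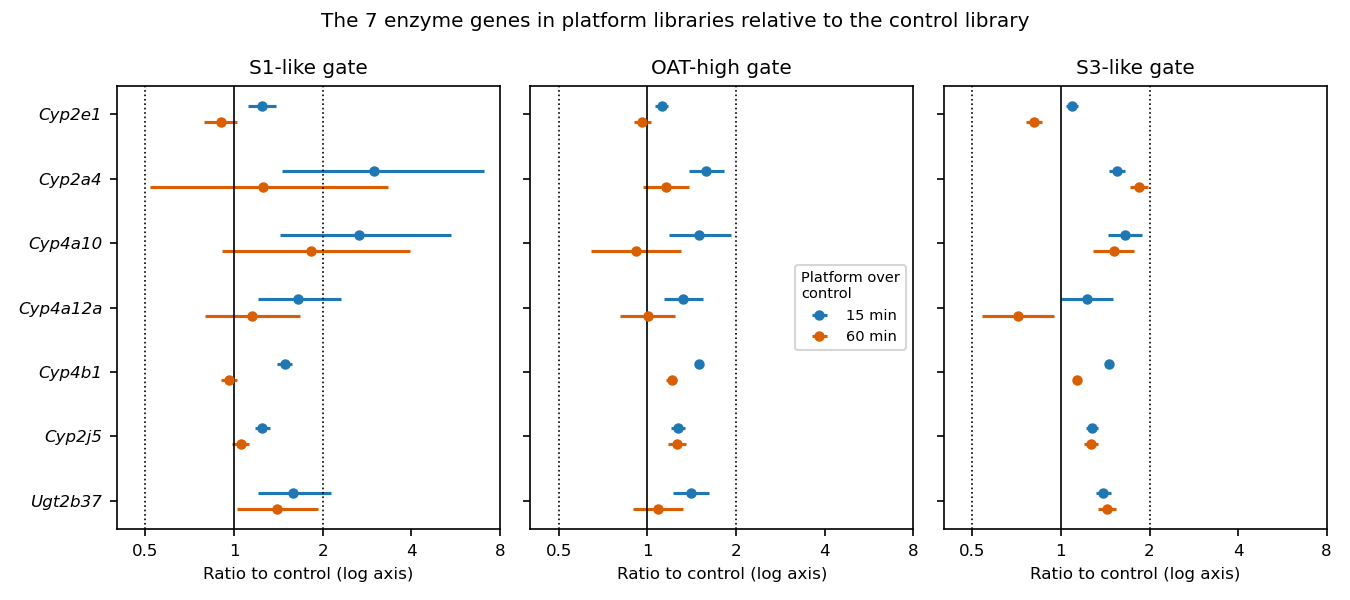
Ratio of the platform libraries to the control library (log axis) for each gene in S1-like, OAT-high and S3-like cells; bars are exact 95% counting intervals, the solid line is 1 and the dotted lines are 2-fold. All 15 min points lie above 1, whereas at 60 min Cyp2e1 (0.808) and Cyp4a12a (0.717) lie below 1 in S3-like cells.

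In S3-like cells the 15 min to control ratio was 1.56 (1.46 to 1.66) for Cyp2a4, 1.65 (1.45 to 1.89) for Cyp4a10 and 1.39 (1.31 to 1.48) for Ugt2b37. It was 1.46 (1.43 to 1.5) for Cyp4b1, 1.27 (1.22 to 1.33) for Cyp2j5, 1.22 (1.00 to 1.5) for Cyp4a12a and 1.09 (1.04 to 1.15) for Cyp2e1. In S1-like cells, Cyp2a4 and Cyp4a10 had ratios of 2.98 (1.46 to 7.10) and 2.66 (1.43 to 5.46), on control counts of 8 and 11 UMIs. The median log2 ratio of the 7 genes was 0.67, 0.49 and 0.48 in S1-like, OAT-high and S3-like cells, and that of all genes -0.06, -0.14 and -0.22.

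At 60 min the 7 genes did not all move one way. In S3-like cells, Cyp2a4 at 1.84 (1.71 to 1.98), Cyp4a10 at 1.51 (1.29 to 1.78), Ugt2b37 at 1.43 (1.34 to 1.54), Cyp2j5 at 1.27 (1.20 to 1.34) and Cyp4b1 at 1.14 (1.10 to 1.17) times the control lay above it, and 11.3% of 7733 genes had an interval above 1. Cyp2e1 at 0.808 (0.759 to 0.862) and Cyp4a12a at 0.717 (0.539 to 0.95) lay below it, as did 13.3% of all genes. The genes above the control included the 3 that rose from OAT-high to S3-like cells, and those below it were the 2 with their highest level in OAT-high cells in all 3 libraries.

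In OAT-high cells, 2 of the 7 had an interval above 1 at 60 min, Cyp4b1 at 1.21 and Cyp2j5 at 1.26 (7.81% of 6429 genes), and none below it (5.54%). In S1-like cells only Ugt2b37, at 1.40, had an interval above 1 (15.6% of 9402 genes) and none lay below it (7.55%). No gene of the set was past 2-fold at 60 min, where 5.39, 2.69 and 3.83% of all genes were in S1-like, OAT-high and S3-like cells. The median log2 ratio of the 7 at 60 min was 0.20, 0.12 and 0.34 in the same order, and that of all genes 0.095, 0.019 and -0.0076. The platform intervals differed from each other in S3-like cells as well: the 60 min to 15 min ratio ran from 0.586 for Cyp4a12a, 0.740 for Cyp2e1 and 0.777 for Cyp4b1 to 1.18 for Cyp2a4.

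Other measures moved with the conditions. The median mitochondrial share of proximal cells was 10.7, 21.7 and 15.8%, and their median depth 5577, 7194 and 6153 UMIs. With UMIs of nuclear genes as the denominator, all 7 genes were above the control at 15 min in each gate. The median mitochondrial share in S1-like, OAT-high and S3-like cells was 18.9, 13.3 and 14.3% in the control and 26.4, 21.3 and 21.1% at 15 min. Leaving out mitochondrial UMIs therefore tends to raise these ratios, so that denominator could not test the rise. The S3-like marker genes Slc22a7 (157, 222 and 271 CPM) and Serpina1f (14.2, 11.6 and 36.4 CPM) also differed between libraries within the S3-like gate, and so did Cyp7b1, a steroid and oxysterol hydroxylase, at 27.3, 17.7 and 120 CPM. The summed endothelial markers (6 genes) were at 3.77, 3.04 and 20.3 CPM and the leukocyte markers (5 genes) at 5.80, 1.37 and 13.3 CPM in that gate. Stromal and podocyte markers summed to at most 5.01 and 1.29 CPM in any proximal gate. The part of these measures in the differences was not tested.

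Over whole libraries, the levels moved with the proximal share of cells, and fewer proximal cells and less RNA per cell cannot be told apart in such sums. Cyp4b1 was at 776, 1852 and 646 CPM, Cyp2e1 at 267, 506 and 189 CPM, Cyp2j5 at 285, 617 and 276 CPM and Cyp2a4 at 71.2, 171 and 63.0 CPM. Ugt2b37 followed with 77.5, 161 and 66.2 CPM, Cyp4a12a with 21.6, 50.3 and 16.1 CPM and Cyp4a10 with 16.3, 43.0 and 14.8 CPM. All 7 genes were thus highest in the 15 min library, where 85.6% of kept cells were proximal, and all 7 were lowest at 60 min, where 28.6% were. These levels used all deposited cells, whereas the gates used kept cells only. Of the 54063, 216634 and 73016 UMIs of Cyp4b1, 26063, 134865 and 28858 lay in kept cells. Between 84.5 and 99.4% of the kept UMIs of each gene lay in proximal cells.

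Outside the proximal tubule, Cyp4b1 stood apart. Its level in endothelial cells was 215 (197 to 235), 266 (239 to 295) and 232 (223 to 242) CPM, which was 16.7, 11.2 and 17.7% of the proximal level of the same library. The other 6 genes reached between 0 and 4.92% there. Kap and Miox, abundant proximal genes that stayed at or under 3.51% of their proximal level in each distal gate, gave a gauge of free RNA: Kap had 1.91, 1.60 and 2.67% of its proximal level in endothelial cells, and Miox 1.69, 2.21 and 1.78%. Miox is also a marker of the proximal gate, so its low level in the other gates was partly fixed by the gating. Gpx3 had 2.90, 3.30 and 3.65% and Fxyd2 2.73, 2.48 and 3.42%, but these genes are less clean gauges, since Gpx3 had 15.9 to 24.6% of its proximal level in intercalated cells and Fxyd2 68.1 to 205% in the thick ascending limb and distal convoluted tubule.

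In leukocytes Cyp4b1 had 23.3, 39.1 and 29.5 CPM, or 1.81, 1.64 and 2.24% of its proximal level, near the values of the other genes. After thinning to 1000 UMIs it was found in 17.3, 22.1 and 21.8% of endothelial cells against 2.57, 4.09 and 3.50% of leukocytes. Without thinning the shares were 49.5, 54.7 and 50.1% of endothelial cells (median 4073, 3745.5 and 3756 UMIs) and 10.8, 16.3 and 13.9% of leukocytes (5720.5, 4098 and 4942.5 UMIs). Gpx3, by contrast, was found in 16.3, 23.8 and 24.5% of thinned endothelial cells and 13.2, 16.7 and 21.8% of thinned leukocytes. As a percentage of the proximal level, Cyp4b1 in endothelial cells exceeded Kap, Miox, Gpx3 and Fxyd2 in every library, while in leukocytes it lay within the range of these 4 genes.

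**Figure D3:**
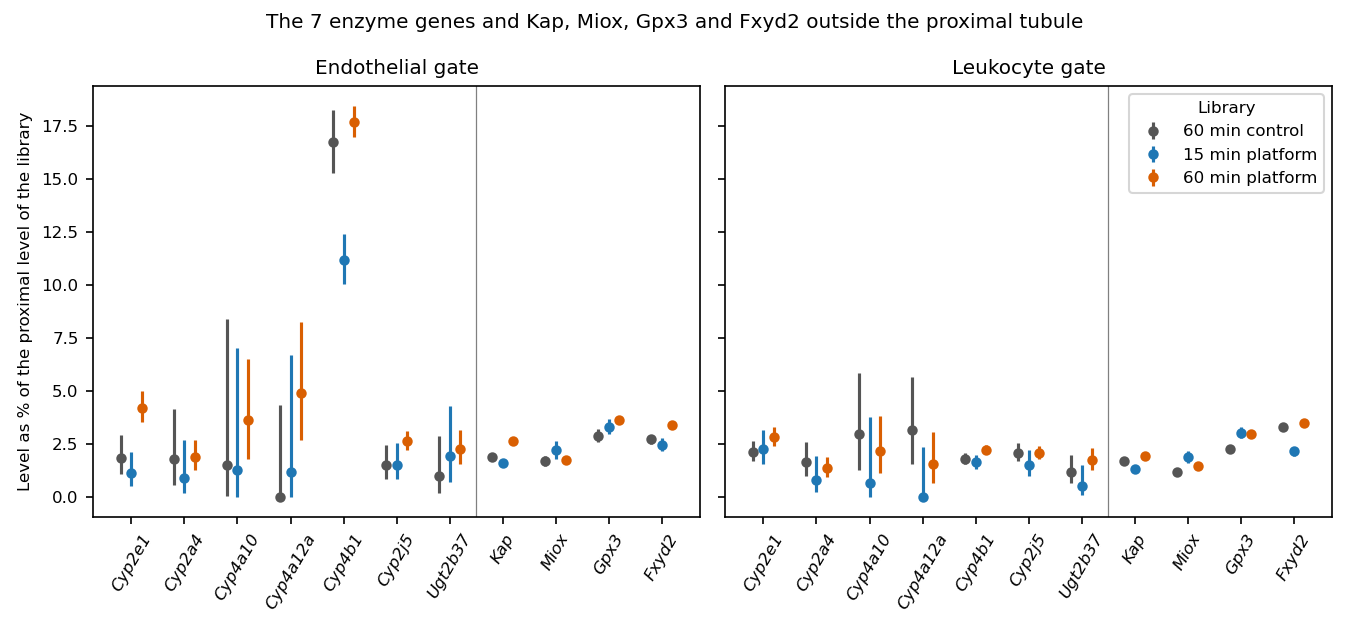
Level of each gene in endothelial cells (left) and leukocytes (right) as a percentage of its proximal tubule level in the same library, with exact 95% counting intervals. Kap and Miox (itself a proximal gate marker) serve as a gauge of free RNA, Gpx3 and Fxyd2 as a less clean one. Cyp4b1 in endothelial cells sits at 16.7, 11.2 and 17.7%, above every other gene in that panel.

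Of the 123 Cyp and Ugt features, 91 had a UMI in the kidney and 32 had none. At least 20 CPM in a proximal gate was reached by 23, the 7 described here and 16 others. Of the other family genes with enough UMIs, 10 of 22 were at least 2-fold higher in S3-like than in S1-like cells in all 3 libraries and 4 were lower, so the direction of the 7 was the more common one in the family but not the only one. Cyp2d9, a steroid hydroxylase of the male mouse, likewise had few S1-like UMIs, with 1.80, 3.43 and 2.50 CPM in S1-like and 92.2, 148 and 108 CPM in S3-like cells. Cyp7b1 had no UMI in S1-like cells of the control and the 15 min library, which, against a limit of 3 UMIs, made it at least 30.3-fold and 80.7-fold higher in S3-like cells (exact 95% lower limits 24.2 and 65.1), and its ratio at 60 min, on 2 S1-like UMIs, was 359 (98.7 to 2972). Ugt3a1 (5.10, 5.34 and 6.5), Cyp2j11 (4.53, 5.06 and 6.03), Cyp2a5 (5.15, 3.78 and 4.37), Cyp4a31 (6.08, 4.48 and 3.11) and the cholesterol synthesis gene Cyp51 (3.25, 4.04 and 6.29) had S3-like to S1-like ratios between 3.11 and 6.5. Ugt3a2, Cyp2j13 and Cyp20a1 completed the 10, and Ugt2b38, Ugt8a and Cyp27a1 passed in neither direction.

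The genes that ran the other way were Cyp2d26, with 164, 240 and 201 CPM in S1-like and 5.22, 7.53 and 5.37 CPM in S3-like cells, and Cyp2d12, with 142, 113 and 108 against 19.4, 28.6 and 46.0 CPM. Ugt2b34 had 32.7, 47.4 and 42.7 against 0.290, 0.761 and 0.283 CPM. Cyp24a1, which inactivates vitamin D, had 37.5, 37.6 and 35.7 against 3.77, 3.42 and 1.98 CPM. From S1-like to OAT-high cells, 6 of 19 other family genes were higher and 2 lower, and from OAT-high to S3-like cells 3 of 20 were higher and 3 lower. At 15 min the median log2 ratio to control of the other family genes was 0.31, 0.33 and 0.45 in S1-like, OAT-high and S3-like cells, with 1 of 28, 0 of 23 and 2 of 24 past 2-fold, all upwards. Over all genes the median was -0.06, -0.14 and -0.22, and 2.46, 3.19 and 3.61% were past 2-fold in either direction. Counts this small cannot be told from those shares.

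**Figure D4:**
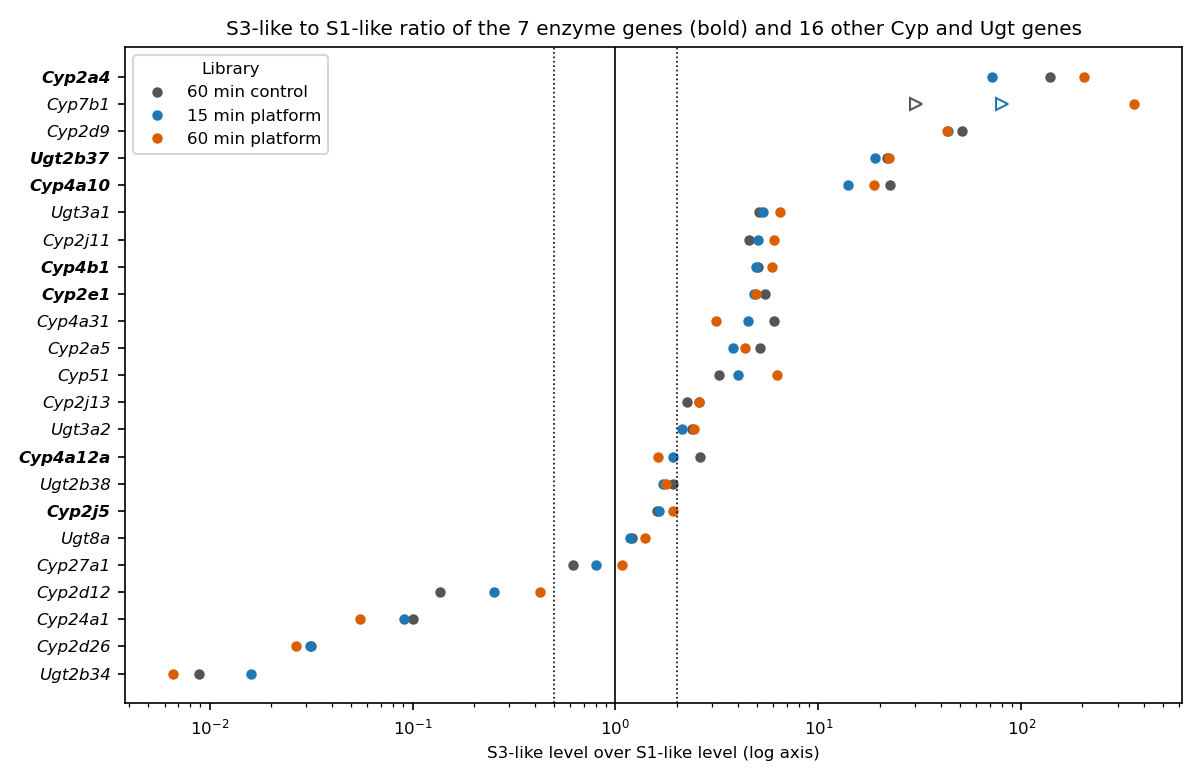
Ratio of the S3-like to the S1-like level (log axis) for the 7 genes, in bold, and 16 other Cyp and Ugt genes of at least 20 CPM, with 1 point per library; open triangles are lower bounds where the S1-like count was 0, and dotted lines mark 2-fold. Cyp2a4 lies at 138, 72.0 and 203, while Cyp2d12, Cyp24a1, Cyp2d26 and Ugt2b34 lie below the lower dotted line.

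Within the Cyp2j family the segments were divided between genes. Cyp2j5 was a proximal gene, at 12.0, 14.9 and 10.1 CPM in the pooled distal gates (thick ascending limb, distal convoluted tubule, principal and intercalated cells), 0.0259, 0.0207 and 0.0182 times its proximal level. Cyp2j6 showed the reverse, with 4.74, 7.36 and 9.20 CPM in proximal and 71.9, 85.6 and 77.1 CPM in distal cells, or 15.2 (11.3 to 20.5), 11.6 (8.38 to 15.8) and 8.38 (6.83 to 10.3) times the proximal level. Cyp2j11 was found on both sides: beside its proximal level it had 94.6, 106 and 114 CPM in the distal convoluted tubule and 57.4, 182 and 85.7 CPM in principal cells, the middle value on 3 UMIs.

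**Figure D5:**
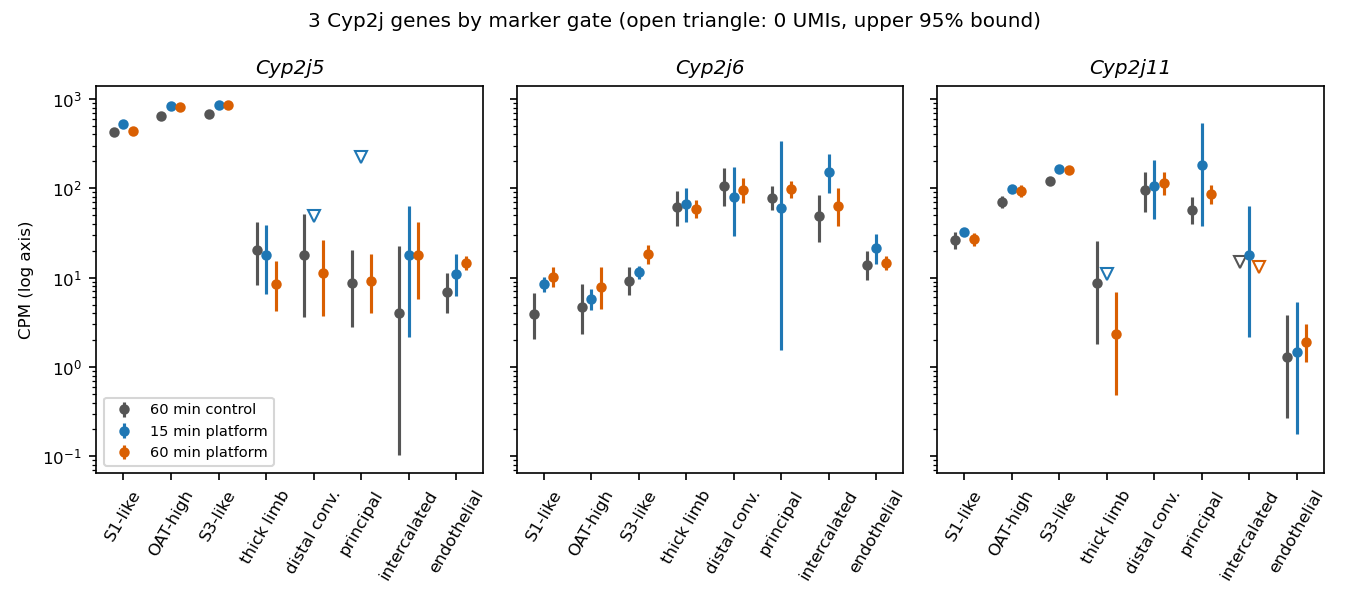
Level of Cyp2j5, Cyp2j6 and Cyp2j11 (CPM, log axis) in each proximal and distal gate and in endothelial cells of the 3 kidney libraries, with exact 95% counting intervals; open triangles give the upper bound where the count was 0. Cyp2j5 falls from proximal to distal gates and Cyp2j6 climbs, with distal values of 71.9, 85.6 and 77.1 over all 4 distal gates.

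Genes that work with these enzymes followed them in part. Of 5 P450 partner and epoxide hydrolase genes with enough UMIs, 2 were at least 2-fold higher in S3-like than in S1-like cells in all 3 libraries, the electron donors Por (2.89, 2.48 and 3.13) and Cyb5a (2.32, 2.06 and 2.0). None of 3 genes of UDP-glucuronate supply passed 2-fold. All 5 androgen-responsive genes did, among them Kap (27.9, 25.9 and 44.1), the anion transporter Slco1a1 (289, 60.9 and 188), Nudt19 (19.3, 15.7 and 22.7) and the polyamine enzyme Odc1 (3.17, 2.56 and 2.60). Of 7 targets of the lipid sensor PPARa, 4 were higher, with Ehhadh at 4.67, 4.36 and 3.74 and Acaa1b at 4.34, 4.37 and 4.85. None of 6 nuclear receptor and hepatocyte nuclear factor genes passed, and Hnf4a was at 0.869, 0.718 and 0.762. Of 9 other drug metabolism genes, 3 were higher, including the acetyltransferase Nat8 (10.9, 9.96 and 13.6), and 2 were lower, including the glutathione transferase Gsta2 (0.107, 0.109 and 0.103). The median log2 ratio of S3-like to S1-like cells, averaged per gene over the 3 libraries, was -0.27 over all genes, 2.40 for the 7 enzymes, 1.08 for the partners, 0.12 for UDP-glucuronate supply, 4.25 for androgen-responsive genes, 1.41 for PPARa targets, -0.44 for the receptors and -0.03 for other drug metabolism. At 15 min, Slco1a1 was 5.52-fold (2.47 to 15.3) above the control in S1-like cells, on 6 control UMIs, and 1.30-fold (1.18 to 1.435) and 1.16-fold (1.105 to 1.225) in OAT-high and S3-like cells. None of the partner, UDP-glucuronate, receptor and other drug metabolism genes was past 2-fold of the control in any of the 3 gates.

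The genes most like each enzyme over the 9 points of 3 gates in 3 libraries were sought among 2707 candidates by Pearson's r of log2(CPM + 1). The points share libraries and gates, so these values describe only the order of levels. Cyp2a4 was most like Napsa (0.999), Mep1a (0.998) and Cd302 (0.998), Cyp4a10 like Por (0.994), Pex11a (0.993) and Cd302 (0.992), and Ugt2b37 like the brush border protease Mep1b (0.995), Ghr (0.994) and Ppic (0.993). For Cyp4b1 the closest were Ggt1 (0.996), Ces1f (0.996) and Slc22a12 (0.994), for Cyp2e1 Npm3, Tmem120a and Blvra (0.993, 0.993 and 0.992), and for Cyp2j5 Derl2, Ppt2 and Tmbim6, all at 0.987. Cyp4a12a had the least close companions, Cldn10 (0.957), C1qtnf12 (0.955) and Tmem150a (0.954). Among the 7 themselves, r ran from 0.409 for Cyp4a12a with Ugt2b37 to 0.989 for Cyp2a4 with Cyp4a10.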

How the data were processed

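Kidney cells of 3 conditions, 1 library each, were profiled by droplet RNA sequencing, and 3 mammary tumor libraries were read for comparison. According to the methods and the submitters' processing notes, the authors aligned reads to mm10 with Cell Ranger 3.1.0, evened read depth between libraries when joining them, and deposited UMI counts per gene and cell. The whole-number counts were used as deposited. The gene and mitochondrial limits of the methods were applied again, and doublets were removed only through the upper gene limit.

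Proximal cells needed 20 UMIs per 10000 from the pan-proximal markers, fewer than 5 from endothelial or leukocyte markers and fewer than 10 from distal ones. The pan-proximal markers were Lrp2, Cubn, Slc34a1, Slc27a2, Miox and Hnf4a, and cells of the other gates had to stay under 20 for them. A segment was assigned where its score led the next by 0.5 on a log2 scale with 1 added. There were 489, 751 and 299 proximal cells within 0.1 of that limit, and 6.00, 2.25 and 9.38% of kept cells fell in no gate. These limits were set from marker UMIs before the enzyme genes were read. The genes and gene lists were chosen with earlier results of these data known. The stromal and endothelial limits in the tumor were added after the tumor totals had been seen.

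UMIs were summed per gate and library. CPM carries exact Poisson intervals, ratios exact conditional binomial intervals and shares Clopper-Pearson intervals at 95%. A gene was called at 2-fold or more with at least 20 UMIs in either library. A count of 0 was read as a limit of 3 UMIs. Named were all 7 genes, other family genes at 20 CPM or more in a proximal gate, close copies, up to 4 genes per list, and for each enzyme the 3 genes with the highest r among those at 50 CPM or more. Genes past the limit that the text names beyond this rule were chosen after their values were seen. Protein identity of close copies had been planned, but shared 90-base transcript windows were used instead. Promoters came from a RefSeq table. Alternatives covered cell limits, denominator, pooling, gate, depth and fold. Python 3.11.15, numpy 2.4.6, pandas 2.3.3, scipy 1.17.1 and matplotlib 3.10.9 were used, and the ratio and interval code was tested on simulated data.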

Additional observations from a re-analysis of the deposited data

How the results depend on the processing

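No paired analysis was possible because each condition was 1 library, and leaving out a replicate was not possible for the same reason. The 15 min ratio stayed above 1 for all 7 genes in S1-like, OAT-high and S3-like cells under every alternative run, except that thinning to 1000 UMIs left 5 in S1-like cells, since Cyp2a4 and Cyp4a10 then had no ratio. The nuclear denominator tends to raise these ratios, so its result could not test them. The number of genes past the fold at 15 min in S1-like cells was 2, compared with 1 without upper limits on genes and mitochondrial share, 1 after thinning and 4 at 1.5-fold. At 60 min in S1-like cells it was 0, compared with 1 as a mean over cells, 1 after thinning and 1 at 1.5-fold. A limit of 1.5-fold gave 1 in OAT-high cells at 15 min and 2 in S3-like cells at 15 min and at 60 min, where 2-fold gave 0. The share of all genes past the fold was not worked out at 1.5-fold or for the other alternatives. These counts therefore cannot be set against a background. The gene lower in S3-like than in OAT-high cells (Cyp4a12a) was lost in 1 random thinning, which left 0. There the control ratio rose to 0.545, while the others were 0.399 and 0.294. In another random thinning to 1000 UMIs, its mean UMIs per cell were 0.0290, 0.0451 and 0.02345 in S3-like cells. In OAT-high cells they were 0.0824, 0.124 and 0.103, more than 2-fold higher in each library, so the lost call varied with the draw. A minimum of 50 UMIs left 13 of 20 other family genes to compare between those gates. The other counts along the tubule stayed within 1.5 times their value, but many single ratios between gates moved by more than their counting interval: 37 of 63 without upper limits, 34 of 63 with the stricter gate, 25 of 59 after thinning, 17 of 63 as a mean over cells and 8 of 63 with nuclear UMIs as denominator. No called ratio changed direction. Ratios near 1 at 60 min crossed it, such as Cyp2a4 in OAT-high cells (1.16, or 0.880 without upper limits) and Cyp2e1 in S1-like cells (0.900, or 1.05 after thinning); the causes were not tested. Depth limits Cyp2a4 and Cyp4a10 most in S1-like cells, where the control held 8 and 11 UMIs.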

Other observations

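In the mammary tumor libraries, from female MMTV-PyMT mice at 10 weeks of age, in which a mammary promoter drives a viral oncogene, Cyp4b1 was the only gene of the 7 above a few UMIs. In the order control, 15 min, 60 min platform it had 396, 400 and 1209 UMIs, or 4.38, 3.95 and 12.5 CPM, whereas the other 6 had at most 9 UMIs in any library and Cyp4a12a, Cyp2j5 and Ugt2b37 had 0. Cells gated by stromal markers (Pdgfrb, Col1a2, Col3a1, Dcn) held 60.4, 63.5 and 83.3% of these UMIs while making up 1.83, 2.38 and 9.70% of cells. The stromal level was 91.5 (80.2 to 104), 85.9 (75.6 to 97.1) and 74.5 (70.0 to 79.2) CPM, against 7.59, 2.0 and 8.29 CPM in tumor endothelial cells and 1.63, 1.47 and 1.66 CPM in all other cells. A Cyp4b1 UMI was found in 47.3, 45.6 and 38.3% of stromal and 1.18, 1.22 and 1.06% of all other tumor cells.

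Cyp27a1, a sterol hydroxylase that starts the acidic route of bile acid synthesis, had a higher level in leukocytes than in proximal cells in every kidney library. It had 49.95 (45.5 to 54.7), 26.4 (20.5 to 33.6) and 52.6 (49.2 to 56.2) CPM in leukocytes, compared with 13.0, 19.7 and 17.1 CPM in all proximal cells and 1.74, 0.735 and 1.70 CPM in endothelial cells.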
